A study of Mus musculus with 108 samples.

Results

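Transcripts of 9 transcription factors of GABAergic interneurons, Dlx1, Dlx2, Dlx5, Lhx6, Sox6, Satb1, Nr2f2, Prox1 and Npas1, were followed in mouse hippocampus. They were taken by gene symbol, 9 of the 23337 genes counted, and all 9 had reads. Hippocampal tissue was collected at postnatal days 0, 7, 14, 21 and 28 (P0 to P28), with 3 replicates per age. In addition, 93 neurons of postnatal weeks 3 to 4 were sequenced one by one. In hippocampal area CA1 these were 14 parvalbumin (PV) and 19 cholecystokinin (CCK) interneurons and 25 pyramidal cells, and in the subiculum 21 burst-firing and 14 regular-firing pyramidal cells. No treatment, mutation, strain or sex is named for any group, and no animal is named for a cell. CA1 cells were prepared with version 3 of a cDNA kit, and subiculum cells and tissue with version 4, so values of CA1 and subiculum cells stand side by side without a ratio.

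Cortical and hippocampal interneurons are born in the ganglionic eminences, transient swellings of the embryonic ventral forebrain, and migrate to their targets. Dlx1, Dlx2 and Dlx5 are homeodomain proteins that act in progenitors and young neurons of all these eminences. Lhx6 is a LIM-homeodomain protein of cells from the medial eminence, the source of PV and somatostatin interneurons, and Sox6 and Satb1 act after it in those cells. Nr2f2 (COUP-TFII, a nuclear receptor) and Prox1 (a homeodomain protein) are typical of cells from the caudal eminence, the source of many CCK and VIP interneurons. Npas1 is a basic helix-loop-helix PAS repressor of interneurons that was placed with neither origin here. Several of these genes are also used outside interneurons: Prox1 in dentate granule cells, Nr2f2 in venous endothelium and Sox6 in oligodendrocyte precursors.

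Dlx1 (GRCm38 chr2:71528113-71533981, plus strand) and Dlx2 (chr2:71543408-71546754, minus strand) are neighbours, 9426 bases apart and transcribed towards each other. Lhx6 lies at chr2:36081953-36105408 and Npas1 at chr7:16455721-16477728, both on the minus strand. The 250 bases before the RefSeq start of these 4 genes (GRCm38.p6) are shown because Dlx1 and Dlx2 fell together in tissue, and because Lhx6 and Npas1 had no cell in common among the CA1 interneurons. Capitals mark matches to AGGTCA, a half-site of nuclear receptors, or to TAATTA, a core of homeodomain sites, searched on both strands, where TAATTA reads the same.
Dlx1: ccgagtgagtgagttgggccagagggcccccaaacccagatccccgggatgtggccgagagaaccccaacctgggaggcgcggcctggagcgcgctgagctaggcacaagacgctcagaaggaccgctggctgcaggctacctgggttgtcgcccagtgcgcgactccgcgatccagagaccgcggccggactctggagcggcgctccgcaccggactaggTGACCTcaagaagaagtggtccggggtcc
Dlx2: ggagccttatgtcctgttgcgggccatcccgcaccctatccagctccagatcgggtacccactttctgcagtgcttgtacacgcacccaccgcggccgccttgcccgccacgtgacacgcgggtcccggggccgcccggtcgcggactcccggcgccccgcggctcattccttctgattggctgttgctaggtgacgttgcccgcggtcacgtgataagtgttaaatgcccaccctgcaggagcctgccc
Lhx6: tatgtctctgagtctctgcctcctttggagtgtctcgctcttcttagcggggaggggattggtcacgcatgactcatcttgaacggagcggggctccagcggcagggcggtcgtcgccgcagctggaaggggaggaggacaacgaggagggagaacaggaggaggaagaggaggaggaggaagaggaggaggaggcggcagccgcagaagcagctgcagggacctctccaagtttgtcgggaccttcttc
Npas1: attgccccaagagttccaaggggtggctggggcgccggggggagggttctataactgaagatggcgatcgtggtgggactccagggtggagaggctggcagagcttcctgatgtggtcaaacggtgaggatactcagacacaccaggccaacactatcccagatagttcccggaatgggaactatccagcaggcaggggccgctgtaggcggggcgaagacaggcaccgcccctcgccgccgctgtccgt
These windows are chr2:71529195-71529444 (plus strand), chr2:71546755-71547004, chr2:36105409-36105658 and chr7:16476781-16477030 (minus strand). The windows of Dlx1 and Npas1 lie inside the gene spans given above, as spans and starts come from different annotations. The Dlx1 window holds 1 AGGTCA on its other strand, a motif in 14% of 32851 promoter windows of this length, and the other 3 windows hold neither motif. TAATTA, found in 4.84% of all windows, was in none of the windows listed for the 8 factors with an entry. The remaining factors lie at chr6:6877805-6882085 (Dlx5), chr7:115470872-116038796 (Sox6), chr17:51736187-51833290 (Satb1), chr7:70351944-70366735 (Nr2f2) and chr1:190118035-190170714 (Prox1), all on the minus strand. Opposite-strand genes share 6.21% of the exon bases of Dlx1 (Dlx1as) and 7.46% of those of Nr2f2 (B130024G19Rik), where reads of both cannot be told apart.

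Tissue libraries held 2341677 to 13262818 gene reads and cells 30025 to 11694081. P0 replicate 1 was the shallowest tissue library. Tissue levels are given as CPM, reads per 1000000 gene reads without spike-ins, and fold changes come from edgeR after TMM scaling (factors 0.931 to 1.09). Levels are compared within a gene, not between genes, because CPM takes no account of transcript length. All 9 factors passed the filter on low counts.

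Relative to all gene reads, 8 of the 9 factors were lower in hippocampal tissue at P28 than at P0, and 0 were called higher. The largest falls were those of Dlx2, Lhx6, Dlx5 and Dlx1, followed by Sox6, Prox1, Nr2f2 and Npas1, and Satb1 was not called. Calls rest on an adjusted p (Benjamini-Hochberg, 14737 genes tested) under 0.05, which 64.2% of genes passed, 32.9% higher and 31.3% lower. The median log2 fold change of the 9 factors was −0.95, against 0.00 over all genes. These levels are shares of a library, not amounts of RNA. In whole tissue, fewer cells of a type, less RNA per cell and more RNA from other cells cannot be told apart.

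Dlx2 had 5.31, 7.17 and 6.96 CPM at P28, against 19.2, 35.4 and 35.6 CPM at P0 (log2 fold change −2.09, SE 0.22, adjusted p = 6.32e-08). Dlx1 had 10.6, 9.98 and 11.4 CPM at P28, against 24.8, 38.0 and 38.4 CPM at P0 (−1.55, SE 0.18, adjusted p = 2.42e-07). Dlx5, the least abundant in reads, had 2.79, 2.66 and 3.33 CPM at P28, against 7.69, 11.4 and 9.46 CPM at P0 (−1.58, SE 0.31, adjusted p = 1.82e-04). For each of the Dlx genes, whose windows for Dlx1 and Dlx2 are printed above, all P28 libraries lay below all P0 libraries. P0 replicate 1 was the lowest P0 library for each of them, and without it the log2 fold changes were −2.28, −1.68 and −1.67 in the same order.

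Of the medial-eminence factors, Lhx6 and Sox6 fell and Satb1 did not pass the test. Lhx6 had 27.9, 26.4 and 30.3 CPM at P28, against 79.9, 114.3 and 111.3 CPM at P0 (−1.72, SE 0.15, adjusted p = 3.33e-09). Sox6 had 21.5, 21.9 and 20.8 CPM at P28, against 50.4, 43.6 and 45.2 CPM at P0 (−0.95, SE 0.13, adjusted p = 3.37e-06). Neither gene had overlapping libraries. Satb1, a chromatin organiser, had 142, 125.7 and 150 CPM at P28, against 155, 146 and 154 CPM at P0 (0.02, SE 0.11, adjusted p = 0.855), and these libraries overlapped. Of 5 genes of oligodendrocyte precursors, where Sox6 is also used, 3 rose and 0 fell between P0 and P28. Their summed level was 384 to 433 CPM at P28 against 274 to 303 CPM at P0, and their part in the level of Sox6 was not tested.

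The caudal-eminence factors fell by less than 1 on the log2 scale. Nr2f2 had 38.5, 45.6 and 35.4 CPM at P28, against 60.6, 66.1 and 70.8 CPM at P0 (−0.58, SE 0.12, adjusted p = 2.93e-04). Prox1 had 39.3, 28.4 and 42.7 CPM at P28, against 69.2, 62.3 and 69.6 CPM at P0 (−0.71, SE 0.14, adjusted p = 1.76e-04). In both genes the ages did not overlap. Over the same interval all 6 dentate granule cell genes rose, with a summed level of 454 to 505 CPM at P28 against 146 to 168 CPM at P0. Of 5 endothelial genes 2 rose and 1 fell, and their sum was 110 to 117.4 CPM at P28 against 121.2 to 131.7 CPM at P0. Their part in the levels of Prox1 and Nr2f2 was not tested, nor was the difference between medial and caudal factors.

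Npas1 had 16.5, 22.7 and 19.6 CPM at P28, against 17.9, 36.9 and 36.2 CPM at P0 (−0.54, SE 0.22, adjusted p = 0.0391). P0 replicate 1 lay among the P28 libraries. The call ended without P0 replicate 2 (−0.42, adjusted p = 0.166), P0 replicate 3 (−0.43, adjusted p = 0.159), P28 replicate 1 (−0.45, adjusted p = 0.124) or P28 replicate 3 (−0.54, adjusted p = 0.086), and over all alternatives its adjusted p ranged from 0.00321 to 0.218. In all, the libraries of P28 and P0 did not overlap for 7 of the 9 factors, compared with 69.3% of all genes.

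**Figure D1:**
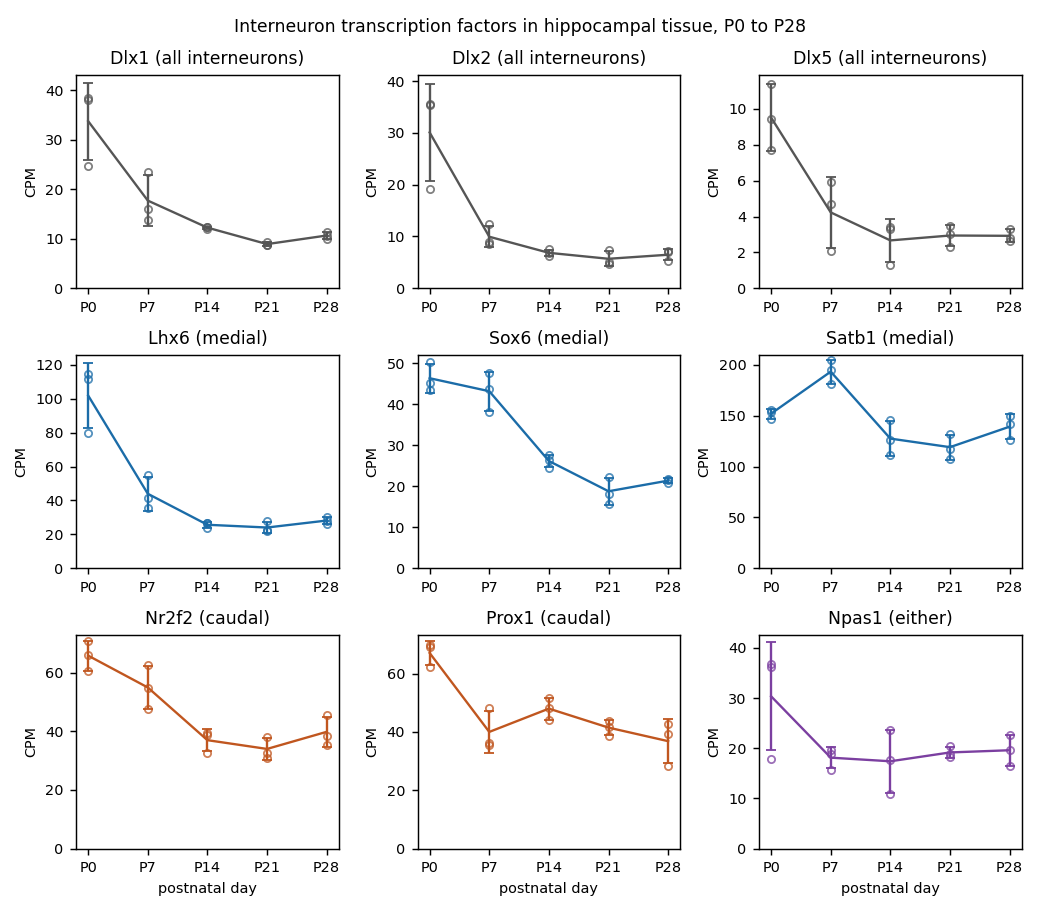
CPM of each factor (vertical axes, each from 0) against postnatal day in hippocampal tissue. Circles are the 3 libraries of an age and lines join the means with SD bars; Lhx6 stands at a mean of 28.19 CPM at P28 and 101.8 CPM at P0, while Satb1 peaks at 193 CPM at P7.

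For the Dlx genes, Lhx6, Prox1 and Npas1 the step of the first postnatal week was the largest of the 4 steps. Between P0 and P7, 6 factors fell and 1 rose, while 38.8% of all genes were called (21.0% higher, 17.8% lower). Libraries of P7 and P0 did not overlap for 6 factors, compared with 49.8% of all genes. Mean levels of Dlx2 in order of age were 30.1, 9.96, 6.85, 5.70 and 6.48 CPM from P0 to P28, and those of Lhx6 101.8, 44.0, 25.7, 24.1 and 28.19 CPM. Lhx6 libraries had 35.3, 41.5 and 55.1 CPM at P7, all below the 3 of P0, and Dlx2 libraries 8.63, 8.92 and 12.3 CPM, also below all of P0. At P7 against P0 the log2 fold changes were −1.55 for Dlx2 (SE 0.22, adjusted p = 1.83e-05), −1.15 for Lhx6 (SE 0.15, adjusted p = 5.17e-06), −1.10 for Dlx5 (SE 0.32, adjusted p = 0.0102) and −0.88 for Dlx1 (SE 0.18, adjusted p = 6.54e-04). Npas1 (−0.74, SE 0.23, adjusted p = 0.0168) and Prox1 (−0.66, SE 0.14, adjusted p = 0.00127) also fell. The calls of Dlx5 and Npas1 were not stable to leaving out a library, and that of Dlx1 ended after thinning to the smallest library (−0.44, adjusted p = 0.6). That of Dlx5 ended without P0 replicate 2 (adjusted p = 0.0533) or P7 replicate 2 (adjusted p = 0.0544), over alternatives from 0.00636 to 0.0819. That of Npas1 ended without P0 replicate 2 (0.0805), P0 replicate 3 (0.0815) or P7 replicate 1 (0.0606), over alternatives from 0.00164 to 0.0815.

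Satb1 was the factor that rose in that week. Its libraries had 194, 204.1 and 181 CPM at P7, against 155, 146 and 154 CPM at P0, without overlap (0.41, SE 0.11, adjusted p = 0.00536). Sox6 (−0.04, adjusted p = 0.858) and Nr2f2 (−0.20, adjusted p = 0.195) were not called between P0 and P7. The 3 genes then fell together in the second week. Between P7 and P14 Satb1 had a log2 fold change of −0.51 (SE 0.11, adjusted p = 6.06e-04), Sox6 of −0.64 (SE 0.13, adjusted p = 6.82e-04) and Nr2f2 of −0.50 (SE 0.12, adjusted p = 0.00289). Satb1 libraries had 145, 125.6 and 111.4 CPM at P14, all below those of P7.

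Lhx6 fell again between P7 and P14 (−0.70, SE 0.15, adjusted p = 9.53e-04), which with Dlx1 (−0.47, SE 0.18, adjusted p = 0.0437) made 5 factors lower at P14 than at P7, 0 higher and 4 not called, while 42.2% of all genes were called (21.7% higher, 20.5% lower). Libraries of P14 and P7 did not overlap for 6 factors, compared with 49.7% of all genes. Dlx1 rested on single libraries. Without P7 replicate 3, its highest P7 library at 23.4 CPM, it had −0.20 (adjusted p = 0.427), and the call was also lost without P14 replicate 1 (0.098), P14 replicate 2 (0.0711) or P14 replicate 3 (0.0872), over alternatives from 0.0155 to 0.427. Prox1 was at 48.0 ± 3.80 CPM at P14 against 40.0 ± 7.19 CPM at P7 (SD, n = 3; 0.33, adjusted p = 0.0712).

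After P14 the levels changed little. Between P14 and P21 Sox6 fell (−0.44, SE 0.13, adjusted p = 0.0246), the 1 factor called of 9, while 20.5% of all genes were called (9.93% higher, 10.6% lower). Libraries of P21 and P14 did not overlap for 3 factors, compared with 35.5% of all genes. Sox6 had 18.2, 15.8 and 22.4 CPM at P21, against 26.4, 27.7 and 24.5 CPM at P14, without overlap. Its call ended without P14 replicate 1 (0.0655), P14 replicate 2 (0.0615), P21 replicate 1 (0.0857) or P21 replicate 2 (0.127), over alternatives from 0.00746 to 0.497. Between P21 and P28 no factor was called by edgeR or DESeq2 and 0 had an unadjusted p under 0.05, while 7.83% of all genes were called (4.49% higher, 3.34% lower). Libraries of P28 and P21 did not overlap for 1 factor, compared with 29.4% of all genes. The largest log2 fold changes of that step were 0.23 for Dlx1 and −0.21 for Prox1. With all ages tested together all 9 factors differed between ages, with adjusted p from 4.8e-10 for Lhx6 to 0.0348 for Npas1, beside 76.4% of all genes.

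**Figure D2:**
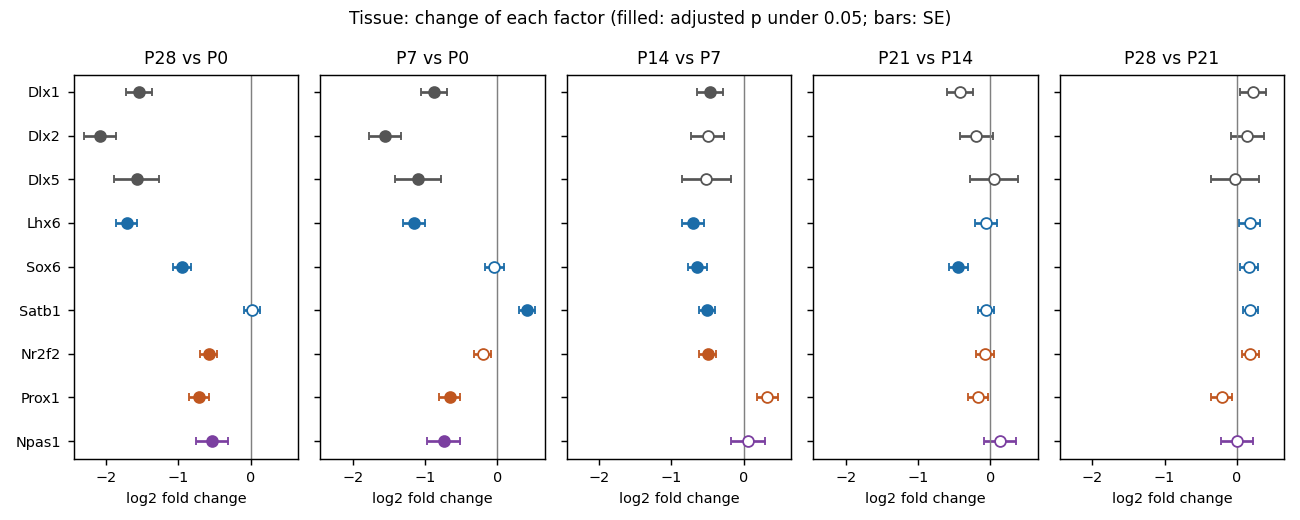
Log2 fold change (horizontal axes) with SE bars of each factor in the comparison of P28 with P0 and in the 4 steps between neighbouring ages. Filled points passed an adjusted p of 0.05; the Dlx genes and Lhx6 lie farthest left at P7, Satb1 lies at 0.41 there, and all points of the step from P21 to P28 are open.

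Across the 15 tissue libraries, log2 CPM of Lhx6 followed that of Dlx1 (Pearson r = 0.960) and Dlx2 (r = 0.956) closely. Satb1 had r = 0.115 with Dlx2, 0.651 with Sox6 and −0.299 with Prox1. These values describe 15 libraries that share ages and depth. By the same measure the tested genes most like Dlx1 were Rpl10, a ribosomal protein gene (0.984), Ptma (0.972) and Evi5l (0.963), and those most like Dlx2 were Tcf3, a basic helix-loop-helix factor (0.973), Ptma (0.963) and Poc1b (0.961). For Lhx6 they were Ttc28 (0.980), Mcmbp (0.976) and 9030624J02Rik (0.974), for Dlx5 Wdr46, Cuedc1 and Rrp15 (0.926 to 0.953) and for Sox6 Trib2, Rab11a and Prkar2b (0.981 to 0.984). For Satb1 they were Plcxd2, Hecw2 and Grm3 (0.903 to 0.919), for Nr2f2 Kctd10, 5430405G05Rik and Emp1 (0.951 to 0.958), for Prox1 Nup93, Peli1 and Ccdc45 (0.857 to 0.890) and for Npas1 Irf2bp1, Pcnxl3 and Ehmt2 (0.917 to 0.938).

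Other transcription factors of developing interneurons fell as well, while genes of the GABA machinery rose. Of 15 further factors 12 were tested, and 10 of these were lower and 1 higher at P28 than at P0 (median −1.11). Nkx2-1, which acts before Lhx6 in the medial eminence, had −2.19 (SE 0.64, adjusted p = 0.0058) and Sp8, a zinc-finger factor of caudal cells, −1.81 (SE 0.41, adjusted p = 7.2e-04). Sp9 (−1.34), Npas3 (−1.23), Zeb2 (−1.14), Maf (−1.09) and Nr2f1 (−0.75) were also among those that fell. Etv1 rose (0.97, SE 0.15, adjusted p = 1.57e-05), Gsx1 was not called (−0.40, adjusted p = 0.522), and Dlx6, Lhx8 and Gsx2 were too low to test.

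Gad1 and Gad2, which synthesise GABA, had log2 fold changes of 1.41 and 1.70, and Slc32a1, which loads GABA into vesicles, of 1.61. Of 6 GABAergic genes 4 rose and 1 fell (Elfn1, −0.52, adjusted p = 0.0386), with a median of 0.99, and Erbb4 was not called (−0.27, adjusted p = 0.232). Of 8 markers of medial-origin interneurons 7 rose and 0 fell (median 1.40), among them Crhbp (4.40), Sst (1.65) and Pvalb, which had 14.6 CPM (489 reads) at P28 against 0.0673 CPM (2 reads) at P0. Of 9 caudal-origin markers 4 rose and 4 fell (median −0.21), with Lamp5 at 3.73, Vip at 3.32, Ndnf at −1.60 and Reln at −2.12. Reln is also made by Cajal-Retzius cells, transient neurons of the marginal zone, whose 6 genes all fell (median −3.10; Nhlh2 −4.79, Lhx5 −4.67), and the 5 radial glia genes fell too (median −2.01). All 5 microglia genes rose, and of 6 pyramidal neuron genes 2 rose and 3 fell.

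**Figure D3:**
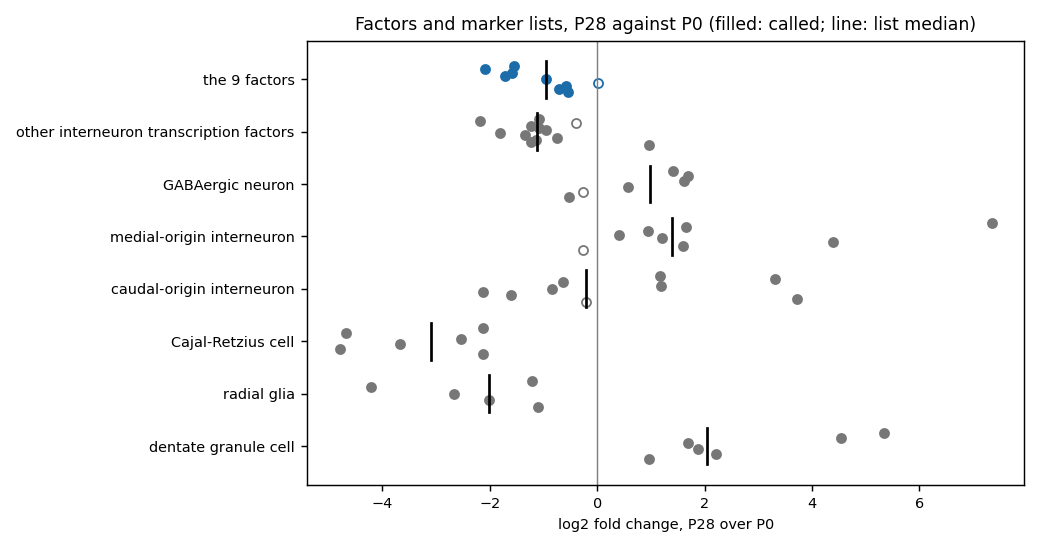
Log2 fold change of P28 over P0 (horizontal axis) for the 9 factors and 7 marker lists (rows), with 1 point per tested gene, filled where called, and a line at each list's median. The median is −0.95 for the 9 factors and −1.11 for other interneuron transcription factors, but 0.99 for GABAergic genes and 1.40 for medial-origin markers; Pvalb, the point farthest right, had 2 reads at P0.

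In the single cells, Gad1 set the interneuron labels apart from CA1 pyramidal cells, while pooled Cck was alike in PV and CCK cells. Pooled Cck was 688 CPM in PV cells and 705 CPM in CCK cells, with reads in 11 of 14 and 19 of 19 cells. Most of the 20990 PV reads of Cck lay in PV cell 12 (12610) and PV cell 11 (4814). PV cell 11 had reads of only 380 genes. Pooled Cnr1 was 1152 CPM in PV cells and 5439 CPM in CCK cells. Markers of origin did not all follow the labels. Of 8 medial-origin markers with at least 5 CPM in either type, 4 were at least 4-fold higher in PV cells. Sst went the other way by that limit, with 0 reads in PV and 528 in CCK cells. Of 8 such caudal-origin markers 3 were lower in PV cells, and Lamp5 was higher (89.7 CPM in PV and 2.22 CPM in CCK cells). Pooled Gad1 was 2863 CPM in PV cells, 1933 CPM in CCK cells and 8.75 CPM in CA1 pyramidal cells. PV cells 1 and 3 and CCK cells 4, 8 and 19 had no Gad1 read, Pvalb was read in 8 of 14 PV cells and 2 of 19 CCK cells, and PV cells 5 and 12 held 2491 and 2723 reads of Vip. In CCK cells 4, 11 and 19 Slc17a7, the vesicular glutamate transporter of pyramidal cells, had more reads than Gad1. The summed level of 5 microglia genes was 0 to 7720 CPM in PV cells, 0 to 11675 CPM in CCK cells and 0 to 12405 CPM in CA1 pyramidal cells, and its part in the results below was not tested. Reads of under 2000 genes were found in 5 PV, 1 CCK and 8 CA1 pyramidal cells. The regular-firing cell 14 had reads of 7 factors and the most Gad1 reads of its type (319).

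As no animal is named, each type was taken as 1 sample without a test. Reads were pooled over cells, ratios have exact 95% intervals that cover counting error only, and PCR reads are not independent molecules. Intervals for shares of cells treat the cells as independent draws and do not cover differences between animals. A factor is said to pass the fold where it differed at least 4-fold with at least 5 CPM in the higher type.

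Among the 9 factors, Lhx6 and Npas1 had the largest ratios between pooled PV and CCK interneurons. Lhx6, Sox6 and Satb1, the medial factors, were higher in PV cells and Npas1 lower. These 4 of 9 factors passed the fold, beside 26.5% of 11498 genes with at least 5 CPM in either type (10.5% higher and 16.1% lower in PV). Neither caudal factor and none of the Dlx genes passed it.

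Lhx6 reached 245.1 CPM in pooled PV cells and 0.724 CPM in pooled CCK cells, a 339-fold ratio (interval 255 to 459.7). With each cell weighted equally it was at 113.6 CPM in PV cells and 0.860 CPM in CCK cells, a 132.1-fold ratio. It had reads in 5 of 14 PV cells (35.7%, exact binomial 95% interval 12.8 to 64.9%), against 1 of 19 CCK cells (5.26%, 0.133 to 26.0%). The PV cells with reads held 22.1 to 728 CPM. The CCK reads, 48 in all, lay in CCK cell 5, which also had 196 reads of Satb1, none of Npas1 or Nr2f2 and 1 of Cnr1, the cannabinoid receptor of CCK cells. After each cell was thinned to 200000 reads, 5 of 13 PV cells and 0 of 19 CCK cells had a read of Lhx6.

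Npas1 showed the opposite distribution, with 153 reads in PV cells (5.02 CPM, exact Poisson 95% interval 4.25 to 5.88) and 15582 reads in CCK cells (interval 231.3 to 238.7 CPM), 46.8-fold lower in PV (interval 40.0 to 55.3). It was read in 2 of 14 PV cells (14.29%, 1.78 to 42.8%), against 15 of 19 CCK cells (78.9%, 54.4 to 93.9%), whose highest value was 585 CPM. Of the PV reads 152 came from PV cell 5, a cell with Vip and 3243 Cnr1 reads, and no Pvalb, Lhx6 or Dlx read. With the cells without Gad1 and PV cells 5 and 12 left out, the log2 ratio moved to −11.11. With each cell weighted equally it was −3.73.

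Satb1 was at 143 CPM in PV cells and 25.4 CPM in CCK cells, 5.62-fold higher (interval 5.31 to 5.95). It was read in 9 of 14 PV cells, against 6 of 19 CCK cells. PV cell 4 held 59.4% of the PV reads, and without it the ratio was 2.87, below the fold. Sox6 was scarce, at 5.28 CPM in PV cells from 2 of 14 cells and 0.121 CPM in CCK cells from 1 of 19 cells (43.8-fold, interval 21.7 to 103.1). Without PV cell 14, the higher of these PV cells, its level was 1.97 CPM. Thinned or weighted equally, Sox6 stayed under 5 CPM in PV cells.

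The caudal factors depended on few PV cells. Nr2f2 was at 15.9 CPM in PV cells and 53.8 CPM in CCK cells (3.38-fold lower, interval 3.07 to 3.72), with reads in 7 of 14 PV cells and 14 of 19 CCK cells. PV cells 1 and 3 held 159 and 145 of the 486 PV reads, and neither had a Gad1 read or reads of over 1000 genes. Without the cells that lacked Gad1, Nr2f2 was at 6.07 CPM in PV cells and 57.0 CPM in CCK cells, 9.40-fold lower. With each cell weighted equally the direction turned, with 95.1 CPM in PV cells and 54.8 CPM in CCK cells. PV cells 1 and 3 stood at 842 and 459 CPM, and without the cells that lacked Gad1 the equal-weight level was 2.55 CPM in PV cells and 61.7 CPM in CCK cells (24.2-fold lower).

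Prox1 was at 44.3 CPM in PV cells and 16.7 CPM in CCK cells, but all 1350 PV reads lay in PV cell 2. That cell had 3317 reads of Lhx6, 1248 of Cnr1, some of Nr2f2 and none of Pvalb. Without it, Prox1 had no read in PV cells, at least 127.2-fold lower than in CCK cells. In CCK cells Prox1 was read in 5 of 19 cells (26.3%, 9.15 to 51.2%), and 4 of these also had Nr2f2.

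Dlx genes were present in both interneuron types. Dlx1 was at 28.19 CPM in PV cells and 60.3 CPM in CCK cells (2.14-fold lower, interval 1.99 to 2.31), in 6 of 14 and 15 of 19 cells. CCK cell 15 held 67.6% of the CCK reads, and without it the CCK level was 20.2 CPM, below that of PV cells. With each cell weighted equally Dlx1 was 6.93-fold lower in PV cells and passed the fold, and thinned to equal depth it was 5.30-fold lower. Both values held CCK cell 15, and without it Dlx1 was 2.02-fold lower in PV cells by equal weight (12.5 CPM in PV and 25.2 CPM in CCK cells) and 1.44-fold lower when thinned. Dlx2 was at 41.7 CPM in PV cells and 33.5 CPM in CCK cells, in 6 of 14 and 10 of 19 cells. Dlx5 was at 46.4 CPM in PV cells and 42.2 CPM in CCK cells, in 5 of 14 and 13 of 19 cells, and PV cell 13 held 72.9% of its PV reads. Without that cell Dlx5 was 2.98-fold lower in PV cells from pooled reads, and 5.02-fold lower by equal weight, past the fold.

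**Figure D4:**
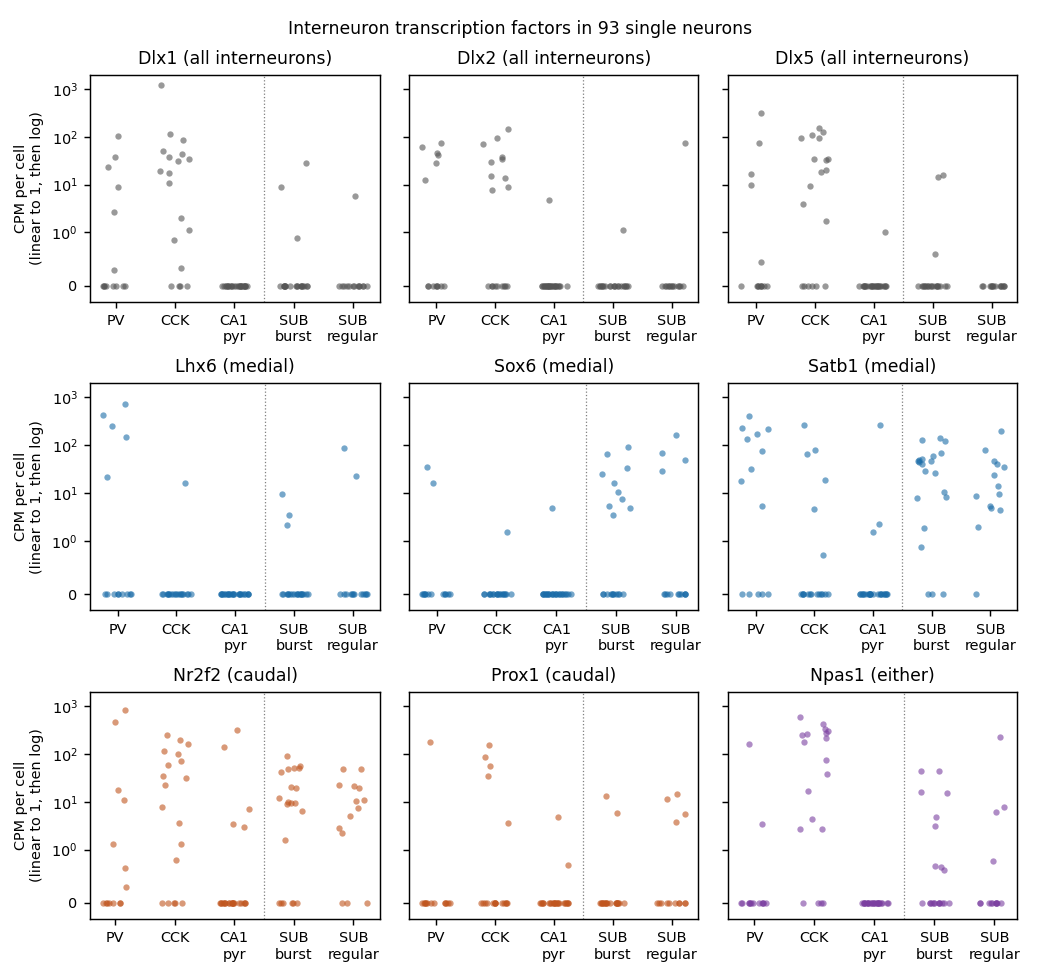
CPM of each factor in each of the 93 cells (points, spread sideways at random; vertical axes linear to 1 and logarithmic above) by labelled type, with a dotted line between CA1 and subiculum types, which differ in kit version. Lhx6 points above 0 lie in 5 PV cells and 1 CCK cell of CA1, and Npas1 points in 2 PV and 15 CCK cells.

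Reads of several factors were found within single cells among the 33 interneurons. At least 1 factor had reads in 32 cells, and any Dlx gene in 7 of 14 PV and 17 of 19 CCK cells. All 3 Dlx genes were read in 3 PV and 9 CCK cells. Lhx6 and Satb1, both medial, shared 5 cells, and Nr2f2 and Prox1, both caudal, shared 5. All 5 PV cells with Lhx6 reads also had a Dlx read, as did all 15 CCK cells with Npas1 reads. Lhx6 and Npas1 had no cell in common, 0 of 33, which allows a share of up to 9.09% for cells with reads of both. In the subiculum they were read together in 2 of 21 burst-firing and 1 of 14 regular-firing cells. Medial and caudal factors were not exclusive: 12 of 33 cells had reads of at least 1 of each kind, 5 of medial factors only and 10 of caudal factors only. Among the cells with both kinds, Satb1 with 1 read was the only medial factor in PV cell 1 and CCK cell 10. PV cell 1 and CCK cell 4, also among them, had no Gad1 read. Lhx6 and Nr2f2 shared PV cells 2, 4 and 13, of which cells 4 and 13 had 8 and 1 reads of Nr2f2. Pvalb and Lhx6 shared 4 PV cells, and 4 further PV cells had Pvalb without Lhx6. The median number of factors with a read per cell was 3 in PV and 5 in CCK cells. After thinning to 200000 reads it was 3 in 13 PV cells and 4 in 19 CCK cells.

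**Figure D5:**
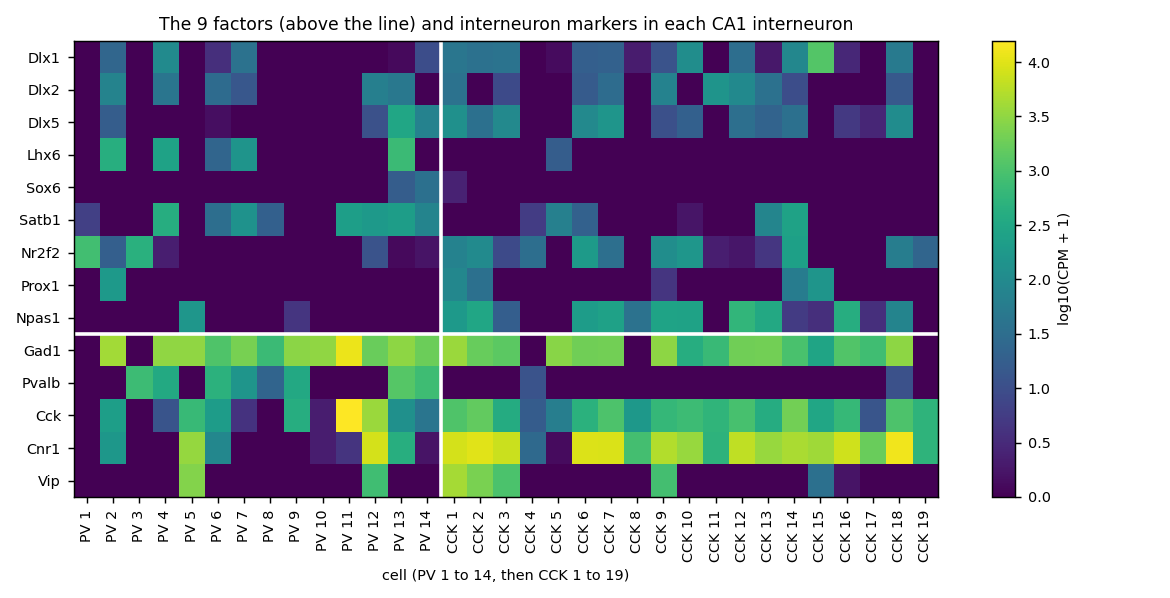
Heat map of log10(CPM + 1) of the 9 factors and, below the white line, 5 interneuron marker genes (rows) in each CA1 interneuron (columns), PV cells left of the vertical line and CCK cells right of it. Lhx6 is coloured in PV cells 2, 4, 6, 7 and 13 and CCK cell 5, and Npas1 in PV cells 5 and 9 and 15 CCK cells.

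Both interneuron types were also compared with CA1 pyramidal cells, which were prepared with the same kit version. PV cells exceeded them by the fold for 8 of 9 factors, beside 40.9% of 11258 genes (23.2% higher in PV). CCK cells exceeded them for 5 of the 7 factors with at least 5 CPM in either type, beside 37.0% of 11496 genes (23.7% higher in CCK). The median number of factors per cell was 0 in CA1 pyramidal cells, and 9 of 25 cells had any. Median depth was 1114365.5 reads in PV, 2611555 in CCK and 1171579 in CA1 pyramidal cells, and median genes with a read were 4511, 6085 and 2784.

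Dlx1, Lhx6 and Npas1 had no read in any of the 25 CA1 pyramidal cells, which allows a share of up to 12% of cells with a read. With 3 reads as the limit for a type without reads, Lhx6 was at least 2577-fold higher in PV cells, and Npas1 at least 2471-fold higher in CCK cells, than in CA1 pyramidal cells. Dlx1 was at least 296-fold higher in PV cells and at least 634-fold higher in CCK cells, and without the cell richest in it at least 96.2-fold and 212.6-fold higher. Dlx2 had 1 read and Dlx5 2 reads in CA1 pyramidal cells. The Dlx2 ratio was 1316 for PV (interval 235.7 to 52001) and 1058 for CCK (189.6 to 41789) over CA1 pyramidal cells. The Dlx5 ratio was 732 for PV (202.3 to 6052) and 666 for CCK (184 to 5500.2). Without PV cell 13 the Dlx5 level of PV cells was 14.15 CPM in place of 46.4 CPM.

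Satb1 and Nr2f2 were not absent from CA1 pyramidal cells, but nearly all reads came from single cells. Satb1 was at 143 CPM in PV cells, 25.4 CPM in CCK cells and 25.04 CPM in CA1 pyramidal cells, where 781 of 790 reads lay in cell 2. Nr2f2 was at 15.9, 53.8 and 25.3 CPM in the same order, and 739 of its 797 reads in CA1 pyramidal cells lay in cell 20. Without that cell Nr2f2 was at 1.99 CPM in CA1 pyramidal cells, and PV cells were 8.01-fold higher. With CA1 pyramidal cells kept and the interneurons without a Gad1 read left out, Nr2f2 went the other way by the fold, at 6.07 CPM in PV cells and 25.3 CPM in CA1 pyramidal cells (4.16-fold lower), and without cells with reads of under 2000 genes it was 4.30-fold lower in PV cells. With the cell richest in each factor left out, PV cells exceeded CA1 pyramidal cells by the fold for 5 factors, namely Dlx1, Dlx2, Dlx5, Lhx6 and Nr2f2, the last with PV cells 1 and 3 among its PV cells. Prox1 then had no PV read and Npas1 1 (0.0338 CPM). CCK cells kept all 5, which were Dlx1, Dlx2, Dlx5, Prox1 and Npas1.

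Subiculum pyramidal cells, prepared with the later kit, had reads of Sox6, Satb1, Nr2f2 and Npas1 in many cells. Satb1 was read in 18 of 21 burst-firing and 13 of 14 regular-firing cells, at 38.6 and 34.9 CPM, and Nr2f2 in 15 of 21 and 11 of 14, at 26.0 and 17.1 CPM. Sox6 was read in 10 of 21 burst-firing cells and 4 of 14 regular-firing cells, at 8.75 and 25.6 CPM. Npas1 was read in 9 of 21 and 4 of 14, at 6.74 and 20.7 CPM. Other interneuron genes were read there too: Gad1 in 15 of 21 burst-firing and 8 of 14 regular-firing cells, at 28.5 and 33.5 CPM. Their part in the reads of the factors was not tested. Median genes with a read were 9860 in burst-firing and 9703.5 in regular-firing cells.

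Burst-firing cells had less Dlx2 and Lhx6 than regular-firing cells by the fold, 2 of the 6 factors with at least 5 CPM in either type, beside 5.23% of 11538 genes (2.05% higher and 3.19% lower in burst-firing cells). Both differences rested on the regular-firing cell 14. Dlx2 was at 0.0458 CPM (1 read) in burst-firing cells and 6.17 CPM in regular-firing cells (134.7-fold lower, interval 23.6 to 5373), where all reads lay in cell 14. Lhx6 was at 0.642 CPM in burst-firing cells and 8.41 CPM in regular-firing cells (13.1-fold lower, 7.56 to 24.6), with 87.1% of the reads in cell 14. That cell also held 317 of 342 Npas1 reads and 230 of 423 Sox6 reads of its type. Without it Dlx2 had no read in regular-firing cells, Lhx6 was at 0.642 CPM in burst-firing and 1.19 CPM in regular-firing cells, and Npas1 was 4.07-fold higher in burst-firing cells (6.74 and 1.65 CPM). Dlx5 had no read in regular-firing cells, which allows a share of up to 21.4%, and 14 reads in burst-firing cells.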

How the data were processed

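The authors deposited raw read counts for each gene symbol in 1 table of the whole series. Among tools the submitters' processing notes list STAR, HTSeq, Trim Galore, cutadapt and FastQC, with mm10 and hg19 as builds, and give no roles. Whether counting used strand is not given in the sources used here, so reads of Dlx1 and Nr2f2 and of the genes opposite them, Dlx1as and B130024G19Rik, cannot be told apart where they overlap. The table's 92 spike-in rows were left out of totals, no column lacked a sample, and no pair of libraries was identical.

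Tissue was fitted with edgeR 4.0.16 in R 4.3.3 (filterByExpr, TMM, robust quasi-likelihood, 1 term per age, all 15 libraries), leaving 14737 of 19485 genes with a tissue read. SE is the log2 fold change over the square root of F. The labels call the replicates independent and name no animals, so p-values measure the spread between these libraries, which may be technical. On counts simulated for P28 against P0 (14527 genes, 200 changed), 73.7% of genes changed by 1 and 93% of those changed by 2 on the log2 scale were called. Alternatives were DESeq2 1.42.0, RLE scaling, no filter, thinning to 2341677 reads, a fit to only the 6 libraries compared, a replicate block, and leaving out each library in turn.

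Cells were pooled per labelled type, with exact Poisson and Clopper-Pearson 95% intervals and a limit of 3 reads for types without reads. The share allowed where no cell had a read is an approximation, 3 divided by the number of cells. Clopper-Pearson intervals reach higher, to 10.6% for 0 of 33, 13.7% for 0 of 25 and 23.2% for 0 of 14 cells. When cells were thinned to 200000 reads, 1 PV, 2 CA1 pyramidal and 1 regular-firing cell were too shallow. Doublets were not called; each library is 1 cell per the labels. Scripts ran in Python 3.11.15 (scipy 1.17.1, pandas 2.3.3, matplotlib 3.10.9, numpy 2.4.6). Coordinates are from GENCODE M21 (GRCm38) and promoter windows from RefSeq (GRCm38.p6, 250 bases before the outermost listed start).

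The factors, marker lists and comparisons were chosen with earlier results of these data known. Named were all 9 factors, the 3 genes most like each by Pearson r over tissue libraries, further interneuron transcription factors, the 2 largest and 2 smallest changes of other lists, label-checking markers and genes overlapping a factor; some are not reported here. Ndnf and Lamp5 are listed under older symbols. Leaving out cells without Gad1, PV cells with Vip reads, cells with under 2000 genes or the regular-firing cell 14, and leaving out cells from equal-weight or thinned levels, was chosen after seeing the data.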

Additional observations from a re-analysis of the deposited data

How the results depend on the processing

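Of 264 recomputed tissue fold changes of the factors 31 lost the call, 4 changed sign and the others kept their direction and side of the threshold. The sign changes were those of Satb1 between P28 and P0, at −0.02 after thinning and −0.02, −0.00 and −0.03 without P0 replicate 2, P28 replicate 1 and P28 replicate 3 (range over left-out libraries −0.03 to 0.09). None of these fits called it. Thinning to the smallest library left 4 factors called at P7 against P0 (from 7), 1 at P14 against P7 (from 5) and 0 at P21 against P14 (from 1), with fewer reads per library. It left 5385, 1939, 2604, 487 and 82 genes called in the order of P28 against P0 and the 4 steps, and 6086 over all ages, against 9465, 5712, 6213, 3026, 1154 and 11266 at full depth. At P7 against P0 thinning ended the calls of Dlx1 (−0.44), Dlx5 (−2.02) and Npas1 (−1.13). The 6 libraries of P21 and P14 alone gave 0 factors, and leaving out a library of either age gave 0 to 1. Leaving out a P21 or P28 library left 481 to 869 genes called at P28 against P21, and P21 against P14 had 1858 without P21 replicate 2.

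Same-numbered replicates of different ages did not deviate together (correlation −0.27 to 0.16, median −0.02 over 30 pairs; 1 of 15 libraries correlated best with its own number). With a replicate block the called factors numbered 8 at P28 against P0, 7, 5, 1 and 0 in the 4 steps and 9 over all ages, but at P14 against P7 Dlx1 was not called (−0.45, adjusted p = 0.0502) and Prox1 was called as higher (0.34, adjusted p = 0.0492). RLE scaling moved the median of all genes by 0.0012.

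For cells, 28 of 33 recomputed counts were within 1.5 times the reported one. The ratios of single factors between cell types were less stable: when recomputed, 60 were classed as the same and 59 as moved. A 2-fold limit gave 7 factors between PV and CCK cells and 4 between burst-firing and regular-firing cells. Leaving out the cell richest in each factor gave 5 for PV against CA1 pyramidal cells and 1 for burst-firing against regular-firing cells, as did leaving out the regular-firing cell 14 (1). Thinned to 200000 reads, 90.6% of interneurons had a read of any factor, against 97% unthinned. Depth limits the shares: factors of a few reads per cell are lost by thinning.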

Other observations

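Further interneuron transcription factors differed between PV and CCK cells. Sp8, a zinc-finger factor of caudal-origin interneurons, was at 11.6 CPM in PV cells and 84.98 CPM in CCK cells, 7.301-fold lower in PV (interval 6.56 to 8.15). It was read in 2 of 14 PV cells, of which PV cell 5, the cell with Vip and Npas1, held 99.4% of the reads, against 13 of 19 CCK cells. Sp9, its relative, was at 21.6 CPM in PV cells and 1.01 CPM in CCK cells (21.4-fold higher, 16.6 to 28.0), in 6 of 14 and 2 of 19 cells. CCK cell 5, the CCK cell with Lhx6, held 73.1% of the Sp9 reads of CCK cells.

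Antisense transcripts of the Dlx loci were read in interneurons as well. Dlx1as, which shares 335 exonic bases (6.21%) with Dlx1 on the other strand, was at 122.2 CPM in PV cells, 189 CPM in CCK cells and 0.0634 CPM in CA1 pyramidal cells. It was found with Dlx1 in 20 of 33 interneurons. Dlx6as1 was at 159 CPM in PV cells, 598 CPM in CCK cells and 0.222 CPM in CA1 pyramidal cells. In tissue, Dlx1as had a mean of 9.13 CPM at P28 against 22.4 CPM at P0 (log2 fold change −1.17, SE 0.17, adjusted p = 7.75e-06), and Dlx6as1 had 19.6 CPM at P28 against 30.6 CPM at P0 (−0.48, SE 0.13, adjusted p = 0.00367). As strand is not stated, reads from the bases that Dlx1 and Dlx1as share cannot be assigned to either.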
